A study of Homo sapiens with 54 samples.

Results

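Integrins are cell surface receptors built from 1 alpha and 1 beta chain, and laminins are basement membrane proteins built from an alpha, a beta and a gamma chain. The genes were taken by name from the tables of 4 human cancer cell lines, giving 18 integrin alpha, 8 integrin beta and 12 laminin genes, or 38 of the 55906 named rows. RNA-seq was performed on cells that had lost the paralogous splicing factors TRA2A and TRA2B, and the question asked here is where these adhesion genes stood in each line and how each perturbation moved them. A549 and NCI-H23, both lung adenocarcinoma lines, carried Zim3-dCas9, a CRISPRi repressor that silences the gene a guide points to. The lines were given control guides (Control KD) or guides for TRA2A (TRA2A KD), TRA2B (TRA2B KD) or the pair (TRA2A/B DKD), and RNA was taken 5 days later. LN229 and LN319, both labelled as glioblastoma lines, received Cas9 together with a guide and were harvested on day 7. They stably expressed luciferase (Luc), with Control KO, TRA2A KO or TRA2B KO, or a TRA2B cDNA (TRA2B-OE), with Control KO or TRA2A KO. Each group had 3 libraries of poly-A RNA from a population of cells, not from a clone, so that 12 libraries came from each lung line and 15 from each glioblastoma line. Sources used here do not say that the 3 replicates were separate cultures, so p-values measure only the spread between these samples, which may be technical.

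Integrins tie the actin cytoskeleton to the extracellular matrix. The beta chain ITGB1 pairs with the largest set of alpha chains, which decide the ligand: ITGA3, ITGA6 and ITGA7 bind laminins, ITGA1, ITGA2, ITGA10 and ITGA11 bind collagens, and ITGA5 binds fibronectin. A laminin is secreted only once its chains have joined, with LAMA5, LAMB1 and LAMC1 forming a trimer of most epithelial basement membranes and LAMA3 and LAMB3 serving at the anchoring sites of stratified epithelia. TRA2A and TRA2B are known to bind GAA-rich stretches within exons and to favour the inclusion of those exons.

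Every one of the 38 genes had a coding sequence in the reference transcripts, and 32 of them held the hexamer GAAGAA at least once, against 65.9% of 19061 genes. The genes are long, with a median coding length of 3495 bases against 1299 for all genes. Per kilobase of coding sequence the median was 0.841 GAAGAA in the integrins and laminins and 0.853 in all genes, so the hexamer was about as dense in them as elsewhere. The highest density, 2.96 per kilobase, was in ITGB6, and ITGA3, ITGA5, ITGA8, ITGA11, ITGB7 and LAMB3 held none.

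The coding stretches below are shown because they are the GAA-richest 60 bases of 3 genes that fell in both double-knockdown lines and of ITGA2, which rose in one of them. They are GRCh38 sequences written 5′ to 3′ in the sense of the transcript, with each GAA in capitals. They lie in exon 26 of LAMB1 (chr7:107937118-107937177, minus strand), exon 5 of LAMA5 (chr20:62352020-62352079, minus strand), exon 12 of ITGA6 (chr2:172484794-172484853, plus strand) and exon 27 of ITGA2 (chr5:53083378-53083437, plus strand).
LAMB1: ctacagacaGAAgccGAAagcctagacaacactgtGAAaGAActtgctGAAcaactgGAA
LAMA5: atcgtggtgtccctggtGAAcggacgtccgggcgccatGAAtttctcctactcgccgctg
ITGA6: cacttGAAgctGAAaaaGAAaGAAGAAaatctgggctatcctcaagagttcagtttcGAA
ITGA2: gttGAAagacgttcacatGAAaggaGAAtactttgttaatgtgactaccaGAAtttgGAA
The stretches of LAMB1 and ITGA6 held 6 GAA each, and 25.2% of genes have a stretch at least as rich. That of ITGA2 held 5, reached by 46.8% of genes, and that of LAMA5 held 2, reached by 96.9% of genes. Whether GAA content goes with the change of a gene was not tested.

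Upstream sequence is shown for LAMA5, LAMB1 and ITGB1, 3 genes that fell in both double-knockdown lines. The stretches are from RefSeq on GRCh38.p14, minus strand, 5′ to 3′, within the 250 bases before the start, and leave out bases that an exon of the gene covers. Capitals mark GGGCGG or its complement CCGCCC, which can overlap each other.
LAMA5: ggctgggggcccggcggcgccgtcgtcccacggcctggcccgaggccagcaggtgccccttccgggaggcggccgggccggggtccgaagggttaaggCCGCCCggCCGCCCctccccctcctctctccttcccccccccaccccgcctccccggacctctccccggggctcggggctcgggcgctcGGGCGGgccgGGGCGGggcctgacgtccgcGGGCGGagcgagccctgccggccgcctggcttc
LAMB1: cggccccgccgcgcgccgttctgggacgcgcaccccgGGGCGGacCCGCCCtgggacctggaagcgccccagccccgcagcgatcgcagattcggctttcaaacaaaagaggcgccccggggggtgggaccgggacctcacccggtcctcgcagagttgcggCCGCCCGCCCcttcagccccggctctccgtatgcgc
ITGB1: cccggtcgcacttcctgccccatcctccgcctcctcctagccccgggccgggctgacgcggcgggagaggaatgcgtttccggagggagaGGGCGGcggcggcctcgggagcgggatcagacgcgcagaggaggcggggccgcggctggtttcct
They run over chr20:62367313-62367562, chr7:108003214-108003411 and chr10:32958326-32958480, and G or C made up 82.8%, 70.4% and 78.4% of the 250 bases. LAMA5 had 5 copies of GGGCGG on either strand, LAMB1 had 4 and ITGB1 had 3, of which 1 lies in the stretch printed. Of the 38 genes, 25 could be matched to a promoter by their start, and 13 of these held GGGCGG, against 42.6% of 35116 promoters. CCAAT, on either strand, was in 4 of the 25 (32% of all promoters), and TATAAA, on either strand, and TGANTCA, which reads alike on both strands, were in 0 (10.7% and 6.57% of all promoters).

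The values are TPM (the share of transcripts in a library that belong to a gene, scaled to transcript length), so that levels of different genes in a library can be set side by side. TPM keeps no record of read depth, and precision is given by the spread of the 3 libraries. Genes that reached 1 TPM in at least 4 libraries of a line were tested with limma on log2(scaled TPM + 0.1), and a gene is called changed when its adjusted p was under 0.05. Of the 38 genes this filter kept 26 for A549, 24 for NCI-H23, 31 for LN229 and 25 for LN319.

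The perturbed genes themselves moved with the labels in every comparison but 1. In the TRA2A KD cells of A549 and NCI-H23 TRA2A fell by 3.29 and 3.90 on the log2 scale, and in the TRA2B KD cells TRA2B fell by 3.27 and 3.35. In TRA2A/B DKD the changes of TRA2A and TRA2B were -2.92 and -2.71 for A549 cells, and for NCI-H23 cells they were -2.44 and -2.13. In LN319, TRA2A changed by -1.55 in Luc TRA2A KO and TRA2B by -1.61 in Luc TRA2B KO. The changes in LN229 were -0.65 and -0.65, and in its TRA2B-OE TRA2A KO cells TRA2A changed by -0.23 and was not called (limma adjusted p = 0.068). The LN229 TRA2B-OE Control KO cells, the controls there, already had less TRA2A than Luc Control KO (-0.50, limma adjusted p = 0.0075). TRA2B was higher by 1.85 in LN229 and 3.03 in LN319 TRA2B-OE cells. The median correlation of a library with the others of its line was between 0.872 and 0.953 in all but 1 library, A549 Control KD replicate 3, at 0.837. Of the epithelial markers, keratins KRT8 and KRT18 were high in both lung lines, but the others were not. EPCAM, CDH1 and KRT19 were at most 3.77, 25.2 and 26.7 TPM in A549 and at most 1.74, 2.47 and 0.604 TPM in NCI-H23. VIM was at 835 to 1196 TPM in A549 and 1121 to 1687 TPM in NCI-H23. In both lines 3 of the 4 lung markers, NKX2-1, SFTPB and SFTPC, were at most 1.06 TPM. The other, NAPSA, was at 0.988 to 5.08 TPM in A549, where it rose in TRA2A/B DKD (1.24, adjusted p = 0.0481), and at most 1.61 TPM in NCI-H23. Of the 7 glial or glioma markers all passed the filter in LN229, with GFAP the lowest, at 1.99 to 5.17 TPM. In LN319 5 of them passed, SOX2 at 316 to 490 TPM, VIM at 2264 to 3454 TPM, CD44 at 1864 to 2297 TPM, NES at 6.12 to 14.7 TPM and GFAP at 0.618 to 3.77 TPM, while S100B was at most 1.07 TPM and OLIG2 at most 0.140 TPM. LN319 also held the epithelial cadherin CDH1 at 116 to 150 TPM and NKX2-1 at 5.68 to 20.2 TPM, so its markers were mixed, and it is called here by its name only. Among leukocyte markers PTPRC and CD3E were at most 1.83 TPM in any library and CD14 at most 4.54 TPM.

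Of the beta chains in control cells, ITGB1 was the most abundant in every line, and it was the most abundant integrin in all but LN229. In the 3 Control KD libraries of A549 it stood at 816, 863 and 821 TPM. In NCI-H23 it stood at 306, 352 and 346 TPM, in LN229 Luc Control KO at 562, 601 and 626 TPM and in LN319 Luc Control KO at 352, 387 and 375 TPM. The lines were processed as separate tables, so no test between them is given. The next beta chain was ITGB5, part of a vitronectin receptor with ITGAV, at 175 ± 21.1 TPM (SD, n = 3) in A549 and 22.0 ± 1.89 TPM in NCI-H23. LN229 had 110 ± 15.9 TPM of it and LN319 had 140 ± 19.1 TPM. ITGB4, which with ITGA6 forms the hemidesmosome receptor, reached 85.8 ± 22.9 TPM in A549 and 30.5 ± 3.16 in LN319, and ranged only from 1.12 to 4.41 TPM over the NCI-H23 libraries and from 5.29 to 12.9 TPM over those of LN229. ITGB3 and ITGB8 were LN229 genes, at 98.7 ± 33.2 and 83.7 ± 6.25 TPM there. ITGB3 was at most 3.33 TPM in any library of another line, and ITGB8 was at most 1.49 TPM in the lung libraries and between 11.1 and 16.7 TPM in LN319. ITGB6, an epithelial beta chain that activates TGF-beta, was an A549 gene, at 5.03, 5.52 and 5.82 TPM in its control libraries.

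Laminin-binding ITGA3 led the alpha chains in A549, LN229 and LN319. It was at 293, 288 and 397 TPM in the A549 controls, at 463, 695 and 742 TPM in those of LN229 and at 209, 223 and 193 TPM in those of LN319. In NCI-H23 it had 60.4, 46.9 and 52.5 TPM, and ITGA6, at 72.2, 72.6 and 60.5 TPM, lay just above it. ITGA6 was at 150, 126 and 140 TPM in the LN229 controls. The 12 alpha chains that pair with ITGB1 summed to 63.5% of the ITGB1 level in A549 controls and 71.2% in NCI-H23, against 181% in LN229 and 123.5% in LN319. By this sum the message of the shared beta chain exceeded that of its partners in the lung lines only. The sum takes ITGAV and ITGA6 whole, though they also pair with ITGB5 and ITGB4, and how they divide was not measured. In LN319 controls ITGAV, at 67.4, 87.1 and 91.8 TPM, was part of a mean sum of 458.5 TPM.

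Laminin chains differed in kind between the lines. In A549 controls LAMA5 was the most abundant laminin, at 501, 461 and 859 TPM, followed by LAMB1 at 191, 186 and 329 TPM and LAMC1 at 91.6, 104 and 171 TPM. Replicate 3 was the highest of the 3 for each of these chains. In NCI-H23 the order was LAMB2, at 64.1, 96.6 and 87.6 TPM, LAMA5, at 65.9, 67.2 and 58.7 TPM, and LAMB1, at 38.7, 41.5 and 51.3 TPM, and the ranges of LAMB2 and LAMA5 overlapped. LN229 used LAMA4, an alpha chain of vessel and mesenchymal laminins, at 402, 185 and 197 TPM, with LAMB1 at 456, 396 and 429 TPM and LAMC1 at 384, 234 and 240 TPM. Its replicate 1 was far above the others in LAMA4 and LAMC1. In LN319 LAMB2 had 191, 177 and 139 TPM, LAMC1 had 144, 167 and 152 TPM and LAMA5 had 109, 123 and 93.3 TPM. LAMA5 was low in LN229, between 4.42 and 18.2 TPM over its 15 libraries. LAMB3 was at 30.9 ± 4.55 TPM (SD, n = 3) in A549 controls and at 23.4, 27.3 and 26.0 TPM in LN229 controls. It was at most 0.294 TPM in NCI-H23 and 7.49 TPM in LN319.

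Several genes were near 0 in most libraries. ITGA8, ITGAD and ITGAL, the last 2 being leukocyte chains, missed the filter in every line, and their highest values in any library were 0.622, 0.542 and 1.11 TPM. The leukocyte chains ITGAX and ITGB2 were at most 2.90 and 7.84 TPM, and ITGB7 at most 4.95 TPM, while ITGAE, their relative that binds CDH1, ran from 27.2 to 84.6 TPM over all lines. ITGA1 was at 3.78 to 11.6 TPM in LN229 and at most 3.84 TPM elsewhere, and ITGA4 was at 60.4 to 101 TPM in LN229 and at most 1.41 TPM elsewhere. ITGA9 was at 0 in 6 of the 12 A549 libraries. Among laminins, LAMA1 passed the filter only in NCI-H23, at 7.08 to 11.6 TPM, LAMA2 was at most 6.83 TPM and LAMB4 at most 3.73 TPM in any library. ITGA10 had its highest value, 4.15 TPM, in LN229. In bulk RNA, fewer cells with a transcript and less of it per cell cannot be told apart.

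**Figure D1:**
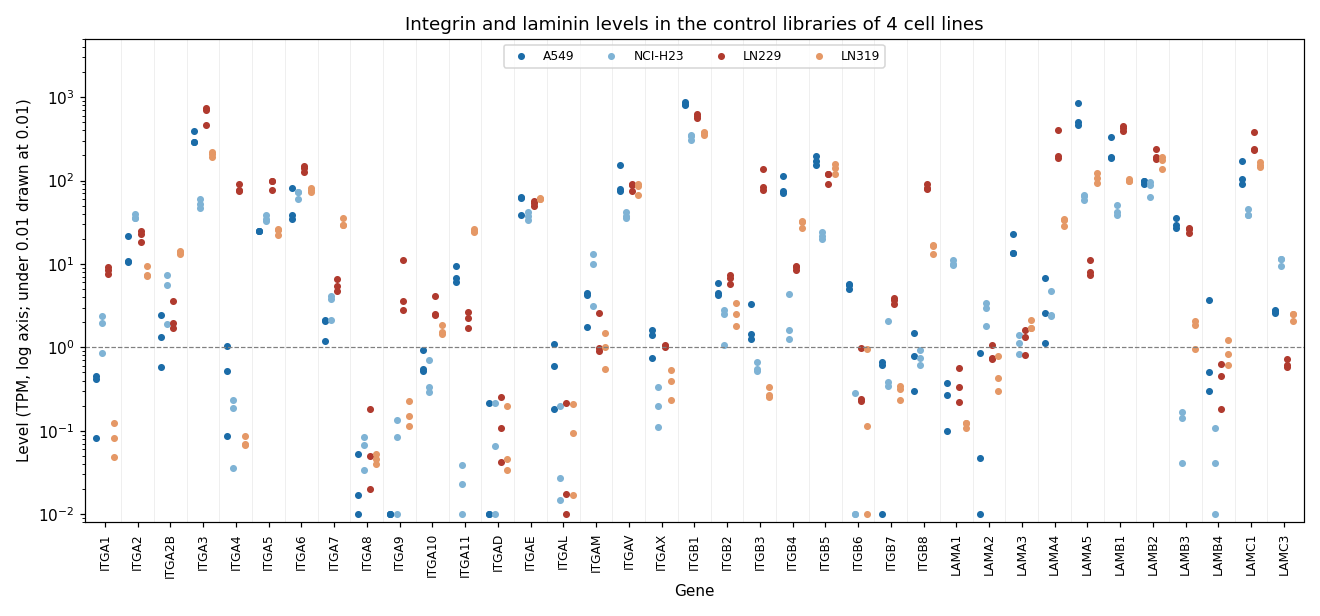
TPM of integrin and laminin genes (log axis) in the 3 control libraries of each line, 1 point per library, with a dashed line at 1 TPM. ITGB1 stands between 306 and 863 TPM in all lines, while LAMA5, LAMA4, ITGB3 and ITGA4 differ widely in level from line to line.

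In the lung lines neither single knockdown gave a called integrin or laminin. In A549, 0 of 26 were called after TRA2A KD (0.207% of 16405 genes called; 6 members at an unadjusted p under 0.05) and 0 after TRA2B KD (0.341% of all genes; 8 members). In NCI-H23, 0 of 24 were called after TRA2A KD (0.976% of 16293 genes; 4 members) and 0 after TRA2B KD (0.196% of all genes; 2 members). The largest estimates were of weakly expressed genes, such as ITGA11 in A549 TRA2A KD, at 3.01, 2.51 and 2.28 TPM against 6.79, 6.13 and 9.53 TPM (log2 fold change -1.33, limma adjusted p = 0.238). LAMA5 was also below each of the A549 controls after TRA2A KD, at 385, 342 and 348 TPM, without being called. Of the partner genes, TNS4 and the ligand VTN fell in A549 TRA2A KD, by 0.99 and 2.05 on the log2 scale.

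Loss of both factors in A549 lowered the laminin chains LAMB1 and LAMA5 and the integrin chain ITGB1. In A549 TRA2A/B DKD 16 of 26 genes were called, 14 lower and 2 higher (61.5%, against 30.6% of all genes, of which 16.3% lower), and the median log2 fold change was -0.55 against 0.03 for all genes. LAMB1 stood at 68.9, 69.9 and 64.8 TPM, far below its lowest control of 186 TPM (log2 fold change -1.82 ± 0.13 SE, limma adjusted p = 4.24e-06). LAMA5 stood at 310, 259 and 267 TPM, also below each control (-1.15 ± 0.15, adjusted p = 0.000241). Of the minor gamma chain, LAMC3, there were 0.904, 1.83 and 0.762 TPM against 2.55, 2.73 and 2.83 TPM (-1.31). No double-knockdown library reached the lowest control in any of these chains. LAMA3 (-0.96) and LAMC1 (-0.53) fell as well. LAMC1 overlapped with its controls and lost its call in 7 of 12 alternatives, among them without Control KD replicate 3. LAMB3 rose, to 61.1, 53.1 and 49.9 TPM against 29.4, 27.2 and 36.0 TPM (0.75 ± 0.13, adjusted p = 0.00129).

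Of the 17 integrins tested in A549 8 fell and 1 rose. ITGB1 fell to 683, 598 and 645 TPM, below its lowest control of 816 TPM (-0.46 ± 0.10, adjusted p = 0.00768), and ITGA3 fell by 0.56 on the log2 scale. Larger changes were in weakly expressed chains. ITGA11 had 2.30, 1.02 and 0.759 TPM against 6.79, 6.13 and 9.53 TPM (-2.56), and ITGB6 had 0.908, 2.50 and 2.04 TPM against 5.03, 5.52 and 5.82 TPM (-1.72). The laminin receptor chain ITGA7 had 0.507, 0.308 and 0.880 TPM against 1.19, 2.15 and 2.10 TPM (-1.63). ITGB3 had 0.767, 0.925 and 0.823 TPM against 1.27, 1.43 and 3.33 TPM (-1.11, adjusted p = 0.0482). In all 4 of these the groups stood apart, but ITGA7 and ITGB3 lost the call in 4 and 9 of 12 alternatives. ITGA6 (-0.69) and ITGAV (-0.58) fell with overlapping groups, and lost the call in 8 and 6 of 12 alternatives. ITGAM, a leukocyte chain, rose to 16.1, 14.0 and 20.0 TPM from 4.28, 4.43 and 1.74 TPM (2.24, adjusted p = 0.0178), while PTPRC was at most 0.386 TPM in A549 and CD14 fell (-1.38). Without Control KD replicate 3 the count was 17 (37.8% of all genes): ITGA6, LAMC1 and ITGB3 were no longer called, and ITGA2 and LAMA4 (both higher) and ITGA5 and ITGB5 (both lower) were called. Without TRA2A/B DKD replicate 3 it was 10, and with only the compared groups in the fit it was 9.

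Epithelial markers moved with these genes, and so did others. EPCAM, CDH1, KRT8 and KRT18 fell by 1.42, 1.38, 0.52 and 0.48 on the log2 scale in A549 TRA2A/B DKD and KRT19 rose by 1.92, and the sum of the 5 was 4116 to 4331 TPM against 5400 to 5822 TPM in controls. Of 4 glial or glioma markers tested 2 fell and 0 rose, and the sum over that list was 1147 to 1252 TPM against 1340 to 1535 TPM. The part of these markers in the laminin and integrin changes was not tested. In the cell machinery around integrins, 10 of 25 focal adhesion adaptors and kinases tested fell and 0 rose, among them the tensins TNS2 (-1.48) and TNS4 (-1.38) and the actin crosslinker ACTN4 (-0.96). Of 16 basement membrane and hemidesmosome partners 8 fell and 0 rose, with COL4A4 (-0.89), the laminin receptor BCAM (-0.82) and perlecan HSPG2 (-0.78) changing most. Of 12 other integrin ligands 3 fell, FGB (-1.68), NPNT (-1.61) and VTN (-1.59), and FGA rose, so that 4 of 12 were called, close to the 30.6% of all genes. The other lists had 10 of 25 and 8 of 16 called lower beside 16.3% of all genes.

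In NCI-H23 the double knockdown lowered LAMA5, LAMB1, LAMC3, ITGA6 and ITGB1, whereas LAMB2, the most abundant laminin, was not called. In TRA2A/B DKD 10 of 24 genes were called, 9 lower and 1 higher (41.7%), a share close to the 43.2% of all genes called (23.2% lower), with a median log2 fold change of -0.42 against 0.02 for all genes. LAMA5 stood at 24.4, 20.0 and 29.5 TPM, far below its lowest control of 58.7 TPM (-1.54 ± 0.11, adjusted p = 2.11e-06). LAMB1 stood at 14.8, 20.2 and 16.1 TPM below its lowest control of 38.7 TPM (-1.52 ± 0.14, adjusted p = 1.28e-05). LAMC3 stood at 3.26, 4.20 and 2.58 TPM against 11.5, 11.5 and 9.39 TPM (-1.83). Each of these chains thus fell to less than its lowest control in all 3 libraries. LAMA4 had 1.86, 1.62 and 1.79 TPM against 4.70, 2.42 and 2.38 TPM (-0.90, adjusted p = 0.0491), a call that rests on Control KD replicate 1 among others. LAMC1 and the embryonic chain LAMA1, like LAMB2, were not called.

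ITGA6 fell to 26.2, 36.8 and 32.5 TPM from 72.2, 72.6 and 60.5 TPM (-1.27 ± 0.15, adjusted p = 6.51e-05). Its partner ITGB1 fell to 218, 232 and 235 TPM from 306, 352 and 346 TPM (-0.71 ± 0.05, adjusted p = 2.74e-06). ITGAV had 29.3, 26.3 and 32.0 TPM against 37.4, 42.3 and 36.0 TPM (-0.56). None of these 3 chains overlapped with its controls. ITGA5 likewise fell, to 29.0, 24.3 and 31.1 TPM from 35.0, 38.5 and 32.9 TPM (-0.49), and the platelet chain ITGA2B fell with overlap (-1.69). Collagen-binding ITGA2 rose to 47.6, 49.4 and 53.1 TPM from 39.4, 36.0 and 35.8 TPM, a small change that just passed (0.28, adjusted p = 0.0488). ITGA3, at 50.2, 55.0 and 49.5 TPM, stayed within the range of its controls. The epithelial markers summed to 1371 to 1606 TPM against 1906 to 1971 TPM in controls. The glial or glioma markers also fell, in 3 of 4 tested with 0 higher, and summed to 1181 to 1319 TPM against 1678 to 1713 TPM. The part of either list was not tested. Among the partner lists 13 of 23 adaptors and kinases fell and 2 rose, with TNS3 (-1.97) and VCL (-1.42) lower and PTK2B (1.18) higher. Of 11 basement membrane partners 5 fell and 1 rose, led by BCAM (-1.21) and AGRN (-0.93), and of 8 other ligands 4 fell, led by TNC (-0.86), THBS1 (-0.77) and TGFB1 (-0.69), beside 43.2% of all genes called and 23.2% called lower.

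The calls that A549 and NCI-H23 shared were 6 genes, ITGA6, ITGAV, ITGB1, LAMA5, LAMB1 and LAMC3, each lower in both lines. They are 37.5% of the 16 calls of A549 and 60% of the 10 calls of NCI-H23. Of all genes, 16.3% and 23.2% were called lower in the 2 lines, and the share called lower in both was not worked out. In A549 the calls of ITGA6, ITGAV and LAMC3 were lost in 8, 6 and 6 of 12 alternatives. Whether the double knockdown exceeded the sum of both single knockdowns was tested within each line. In A549 5 of 26 genes departed from the sum (14.7% of all genes): ITGB6 (-2.22), LAMB1 (-1.11) and ITGB1 (-0.73) were lower than the sum, and ITGA2 (1.26) and LAMB3 (1.17) were higher. In NCI-H23 7 of 24 departed (21% of all genes), with ITGA2B (-2.04), LAMB1 (-1.48), LAMA5 (-1.34), ITGA6 (-1.22), LAMC3 (-1.18) and ITGB1 (-0.66) lower and ITGA1 (3.37), at no more than 3.84 TPM in any library, higher. LAMB1 and ITGB1 were below the sum in both lines. In A549 these calls lean on the scaling: with quantile normalization LAMB1 and ITGB1 were no longer called and the count was 3, and without Control KD replicate 3 it was 9 (21.9% of all genes). In NCI-H23 the calls of ITGA2B and ITGA1 were lost in 13 and 8 of 17 alternatives.

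**Figure D2:**
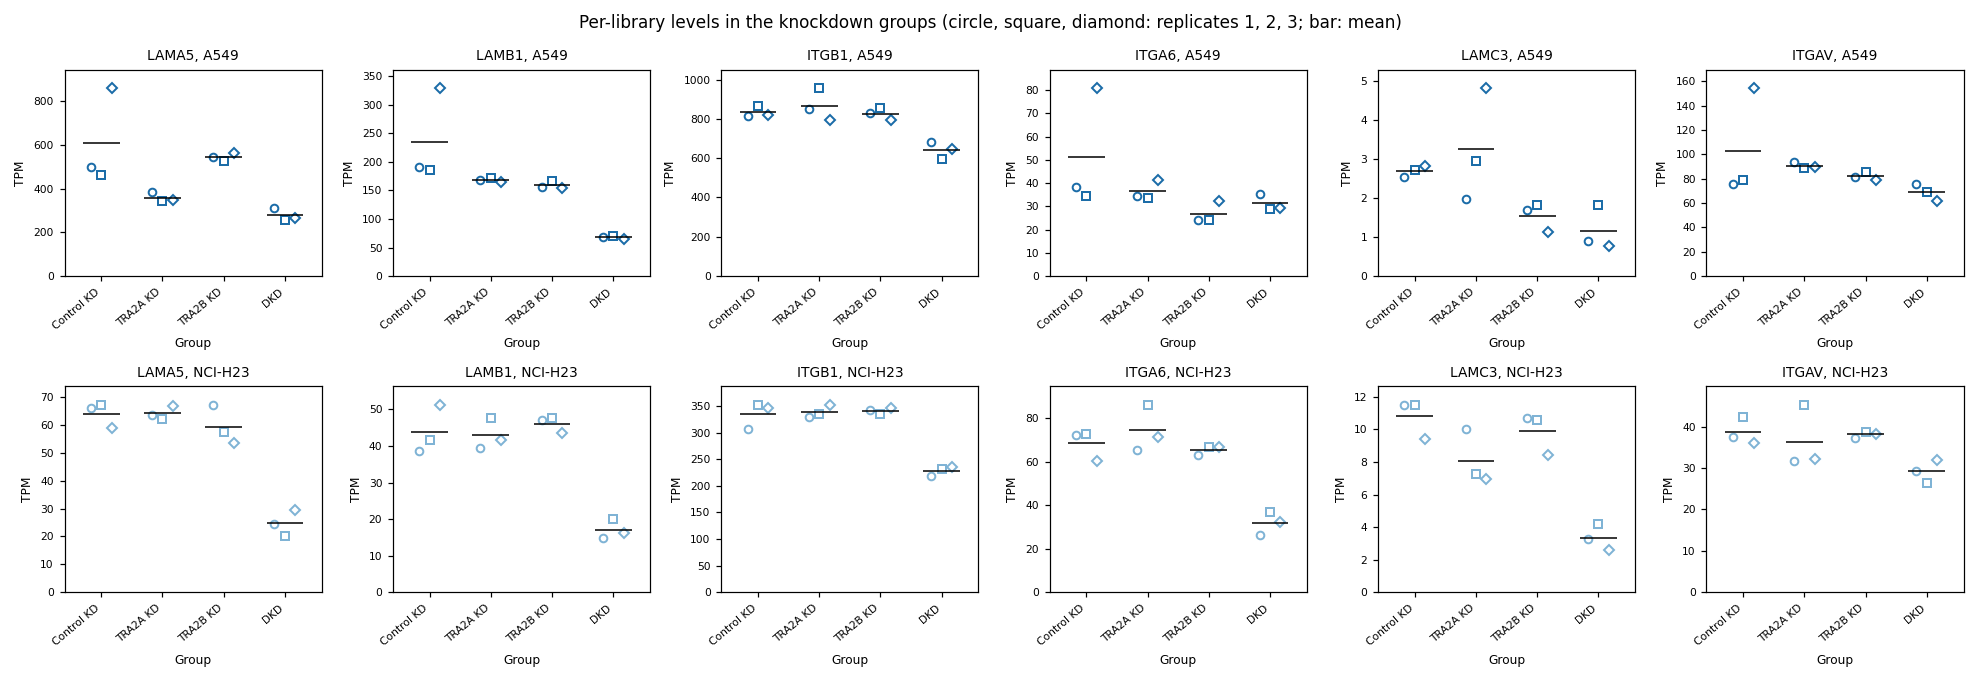
TPM of 6 genes by group in A549 and NCI-H23, with circle, square and diamond for replicates 1, 2 and 3 and a bar at the mean. LAMB1, LAMA5 and ITGB1 in the TRA2A/B DKD libraries lie below each control of their line, and the third A549 control is the highest of all A549 libraries for LAMA5, LAMB1, ITGA6 and ITGAV.

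In LN229 both knockouts were set against the same Luc Control KO libraries, whose replicate 1 stood apart in several of these genes. LAMA4 had 402 TPM in it and 185 and 197 TPM in the others, ITGA9 had 11 against 2.81 and 3.57 TPM, and ITGA3 had 463 against 695 and 742 TPM. The astroglial marker S100B had 834 TPM in that library and 276 and 255 TPM in the other controls. It had 937 to 1035 TPM in Luc TRA2B KO and 116 to 319 TPM in Luc TRA2A KO, where replicate 1 was again the highest. Of the other glial or glioma markers, OLIG2 and SOX2 were highest of the controls in that library, whereas GFAP, NES, VIM and CD44 were lowest. CD44 had 536 TPM there against 684 and 693 TPM, with 478 to 519 TPM in Luc TRA2B KO and 779 to 867 TPM in Luc TRA2A KO. The part of these markers in the values below was not tested. After Luc TRA2A KO 2 of 31 genes were called (6.45%, against 3.79% of 18490 genes; 14 members at an unadjusted p under 0.05). ITGB3 fell to 46.8, 46.7 and 46.3 TPM from 137, 76.1 and 83.3 TPM (-1.01 ± 0.17, adjusted p = 0.011). Its knockout libraries stood below the range of the controls. Without Control KO replicate 1, Control KO replicate 2, TRA2A KO replicate 1 or TRA2A KO replicate 2 in turn 1 gene remained called, and without TRA2A KO replicate 3 none.

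After Luc TRA2B KO 0 of 31 genes were called in LN229 (0.557% of all genes; 10 members at an unadjusted p under 0.05). Without Control KO replicate 1 the count was 9 (20.8% of all genes), among them ITGA9 (2.02), LAMA4 (1.09), ITGB3 (0.89) and LAMC1 (0.59), which were higher, and ITGA3 (-0.68), LAMB3 (-0.65), ITGA5 (-0.46) and ITGB1 (-0.18), which were lower. A comparison of the 2 knockouts with each other needs no control library and was added after the data had been seen. In it 19 of 31 genes were called (61.3%, against 34.1% of all genes), 11 higher and 8 lower in TRA2B KO than in TRA2A KO.

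The alpha chain ITGA9, a tenascin receptor, had 12.1, 14.3 and 14.6 TPM in LN229 Luc TRA2B KO and 2.19, 1.70 and 1.24 TPM in Luc TRA2A KO (2.89 ± 0.46, adjusted p = 0.0011). ITGB3 had 139, 161 and 161 TPM against 46.8, 46.7 and 46.3 TPM (1.64 ± 0.17, adjusted p = 0.000225). LAMA4 had 394, 442 and 435 TPM against 146, 131 and 115 TPM (1.63 ± 0.25, adjusted p = 0.000918). In these 3 genes the knockouts were far apart, with Control KO replicate 1 near the TRA2B KO cells and replicates 2 and 3 between the knockouts. LAMC1 followed with 365, 373 and 379 TPM against 212, 194 and 188 TPM (0.84). LAMA5 (0.94), ITGA10 (0.86), ITGA7 (0.50), ITGB2 (0.47), ITGA6 (0.41), LAMB2 (0.38) and LAMB1 (0.20) were also higher in TRA2B KO. Among the genes lower there was LAMB3, at 16.9, 18.4 and 17.5 TPM against 27.9, 37.2 and 36.4 TPM (-0.998). ITGA3 was lower too, at 436, 486 and 476 TPM against 685, 829 and 760 TPM (-0.77), as were ITGA2 (-0.61), ITGA5 (-0.47), ITGB5 (-0.42), ITGA4 (-0.32) and ITGB1 (-0.23). Leaving out TRA2A KO replicate 3 left 12 calls. The partner lists held 12 lower and 4 higher of 23 adaptors and kinases, and 6 lower and 4 higher of 14 basement membrane partners, beside 34.1% of all genes called.

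TRA2B overexpression with a control guide changed 0 of 31 genes in LN229 (1.03% of all genes; 6 members at an unadjusted p under 0.05). With TRA2B overexpressed, TRA2A KO changed 7 of 31 (22.6%, against 6.05% of all genes, of which 3.88% lower), 6 lower and 1 higher. LAMA4 fell to 89.6, 88.7 and 84.5 TPM from 250, 159 and 132 TPM (-1.02), and ITGB4 to 5.29, 7.69 and 6.51 TPM from 12.9, 11.7 and 12.1 TPM (-0.95 ± 0.14, adjusted p = 0.00267). ITGB3 fell to 37.8, 41.4 and 39.4 TPM from 89.8, 68.7 and 61.5 TPM (-0.91 ± 0.17, adjusted p = 0.0117). These 3 genes were lower in every TRA2A KO library than in any control. Control KO replicate 1 stood apart here too, with S100B at 496 TPM in it, 169 and 165 TPM in the other controls and 56.5 to 133 TPM in the TRA2A KO cells. Without it the change of LAMA4 was -0.77 (adjusted p = 0.115). ITGB8, with ITGAV an activator of TGF-beta, fell to 82.2, 63.5 and 50.3 TPM from 91.7, 97.9 and 83.2 TPM (-0.54), LAMB1 fell to 404, 422 and 357 TPM from 499, 467 and 422 TPM (-0.26), and ITGA6 fell by 0.45 with overlap. LAMB3 rose to 57.7, 72.3 and 77.8 TPM from 31.6, 45.9 and 45.7 TPM (0.73). ITGB3 and ITGB4 stayed called under each alternative tried, whereas the count was 2 without Control KO replicate 1, without TRA2A KO replicate 2 or without TRA2A KO replicate 3, and 4 without Control KO replicate 2. In these cells TRA2A itself was not called lower than in the TRA2B-OE controls, with means of 69.9 and 80.2 TPM. Its mean was 68.8 TPM in Luc TRA2A KO and 109 TPM in Luc Control KO. Protein was not measured in these data. The change of the TRA2A KO effect by TRA2B-OE was called for 0 of 31 genes (0% of all genes; 2 members at an unadjusted p under 0.05), and ITGB3 changed by -1.01 in Luc and -0.91 in TRA2B-OE cells. SOX2, a neural stem cell factor, was at 20.4 to 30.1 TPM in these TRA2A KO cells against 56.5 to 69.3 TPM. NES and S100B were also lower there, whereas VIM was higher, as was CD44, at 1005 to 1095 TPM against 717 to 887 TPM. Of the 7 glial or glioma markers 2 were called lower and 0 higher. Their part was not tested. Of the partners NID1 (-0.97), DAG1 (-0.74) and TNS2 (-1.23) fell and COL4A6 (0.86) and VCL (0.36) rose.

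**Figure D3:**
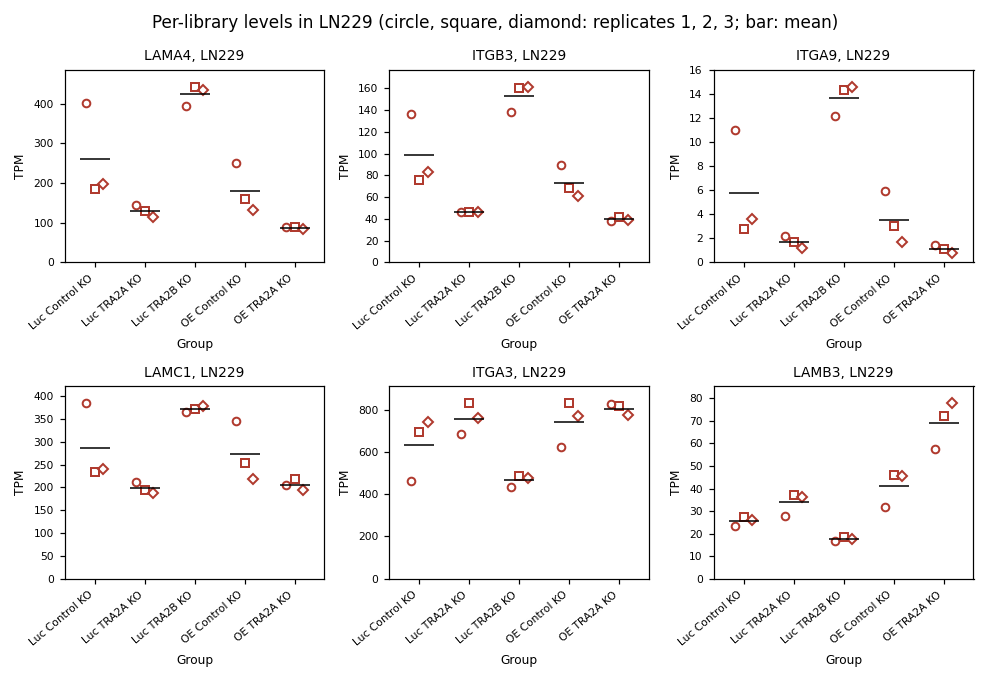
TPM of 6 genes in the 15 LN229 libraries by group, with circle, square and diamond for replicates 1, 2 and 3 and a bar at the mean. For LAMA4, ITGB3, ITGA9 and LAMC1 the Luc TRA2B KO libraries are high and the Luc TRA2A KO libraries low, and the first Luc Control KO library sits near the former.

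In LN319, of the genes called after both of the 2 knockouts, LAMA5, ITGA7 and ITGA2B moved in opposite directions and ITGA5 rose in both. After Luc TRA2A KO 7 of 25 genes were called, 5 lower and 2 higher (28%, against 14.3% of 19303 genes). ITGA7 fell to 21.7, 20.5 and 17.3 TPM from 29.4, 35.8 and 29.3 TPM (-0.63 ± 0.10, adjusted p = 0.00162). ITGB4 fell to 20.7, 19.9 and 17.7 TPM from 33.0, 31.6 and 27.0 TPM (-0.61 ± 0.11, adjusted p = 0.00297). LAMA5 fell to 75.4, 80.4 and 59.2 TPM from 109, 123 and 93.3 TPM (-0.56 ± 0.12, adjusted p = 0.00753). The laminin chain and receptors for it thus fell together, with no overlap. ITGA2B fell to 10.5, 10.6 and 8.27 TPM from 14.3, 13.2 and 13.8 TPM (-0.46), and ITGA6 fell to 68.3, 66.1 and 62.3 TPM from 76.2, 81.7 and 73.2 TPM (-0.19). LAMB1 rose to 129, 120 and 126 TPM from 100, 104 and 97.6 TPM (0.35), and the fibronectin receptor ITGA5 to 29.6, 28.0 and 27.0 TPM from 22.3, 25.3 and 26.1 TPM (0.24). The calls of LAMB1 and ITGA5 were lost in 9 and 5 of 12 alternatives. Without Control KO replicate 2 both of these higher calls were lost and 4 calls, all lower, were left. Of 10 other integrin ligands 3 rose and 2 fell, among them THBS1, from 129 to 405 TPM (1.69), FN1, from 1506 to 2698 TPM (0.88), and VCAM1 (-1.06). Of 17 basement membrane partners 1 rose, NID2 (1.33), and 5 fell, among them COL17A1 (-1.27) and HSPG2 (-0.72), and of 24 adaptors and kinases 3 rose and 2 fell.

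After Luc TRA2B KO 10 of 25 LN319 genes were called, 4 higher and 6 lower (40%, close to the 42.6% of all genes), with a median log2 fold change of 0.00 against 0.02 for all genes. LAMA5 rose to 162, 177 and 184 TPM (0.58 ± 0.12, adjusted p = 0.00161), ITGA7 to 51.9, 44.3 and 49.7 TPM (0.52 ± 0.10, adjusted p = 0.0013) and ITGA2B to 19.9, 21.7 and 21.2 TPM (0.49 ± 0.10, adjusted p = 0.00204). All 3 genes had fallen after TRA2A KO, measured against the same controls. ITGA5 rose to 31.0, 30.8 and 30.4 TPM (0.22), as it had after TRA2A KO. ITGA11 fell to 14.9, 16.4 and 13.4 TPM from 26.5, 24.1 and 24.7 TPM (-0.86 ± 0.12, adjusted p = 0.000206), and ITGAE to 46.1, 47.7 and 47.3 TPM from 60.1, 62.3 and 59.4 TPM (-0.47). ITGB1 fell to 322, 321 and 310 TPM from 352, 387 and 375 TPM (-0.33 ± 0.06, adjusted p = 0.000543). Its call was lost under quantile normalization (limma adjusted p = 0.268), and its estimates over the alternatives ran from -0.36 to -0.07. ITGB5 (-0.29), ITGA2 (-0.28) and LAMC1 (-0.16) fell with groups that overlap, and LAMC1 turned to 0.05 under quantile normalization. Basement membrane partners rose in 11 of 17 cases and fell in 2, with AGRN (0.75), COL4A3 (0.68) and COL4A1 (0.66) rising most. Adaptors and kinases fell in 10 of 24 cases and rose in 3, led by PARVA (-0.79), LIMS1 (-0.78) and FERMT2 (-0.60), all 3 of which link integrin tails to actin. Epithelial markers summed to 284 to 299 TPM against 344 to 357 TPM, and glial or glioma markers to 4623 to 4858 TPM against 5692 to 5850 TPM. The mitochondrial share of TPM was 18.3% to 20.6% against 12.1% to 12.8%. Their part was not tested.

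Set against each other, the 2 knockouts of LN319 differed in 13 of 25 genes (52%, against 47.2% of all genes), 6 higher and 7 lower in TRA2B KO. ITGA7 (1.15), LAMA5 (1.14), ITGA2B (0.95), ITGB4 (0.65), LAMB2 (0.37) and ITGA6 (0.26) were higher, and LAMB3 (-1.04), ITGA11 (-0.87), LAMB1 (-0.59), ITGAE (-0.53), ITGB5 (-0.50), ITGB1 (-0.46) and LAMC1 (-0.29) were lower. This comparison, too, was added after the data had been seen. In both glioblastoma lines 9 genes were called in it, which is 47.4% of the LN229 calls and 69.2% of the LN319 calls. Of all genes, 34.1% and 47.2% were called in the 2 lines, and the share called in both was not worked out. Of the 9 genes, ITGA6, ITGA7, LAMA5 and LAMB2 were higher and ITGB1, ITGB5 and LAMB3 lower in TRA2B KO in both lines, and LAMB1 and LAMC1 went opposite ways. In LN229 the calls of ITGB5, LAMB1, ITGA7, ITGA6, LAMB2 and ITGB1 were lost in 7, 6, 5, 4, 3 and 1 of 12 alternatives. In LN319 those of LAMC1 and LAMB2 were lost in 2 and 1 of 12.

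TRA2B overexpression in LN319 raised 6 of 25 genes and lowered 0 (24%, against 4.31% of all genes, of which 2.16% higher). LAMB3 rose to 7.46, 6.86 and 3.89 TPM from 1.83, 2.06 and 0.947 TPM (1.78 ± 0.28, adjusted p = 0.00743), and ITGB4 to 61.0, 55.5 and 45.3 TPM from 33.0, 31.6 and 27.0 TPM (0.73 ± 0.11, adjusted p = 0.00562). ITGA11 rose to 46.3, 39.6 and 31.5 TPM from 26.5, 24.1 and 24.7 TPM (0.54), and LAMB1 to 175, 153 and 118 TPM from 100, 104 and 97.6 TPM (0.46). ITGA2 rose to 12.2, 11.6 and 10.03 TPM from 7.30, 9.48 and 7.11 TPM (0.42) and ITGA3 to 313, 287 and 238 TPM from 209, 223 and 193 TPM (0.33). Each of these genes lay above its controls in all overexpressing libraries, and replicate 3 of these was the nearest to the controls in each gene. With only the compared groups in the fit none of the 6 was called (adjusted p = 0.0917 for ITGB4 and 0.129 for LAMB3). Without replicate 3 of the overexpressing libraries 10 genes were called, and without either of the other overexpressing libraries 2 were. Leaving out a Luc Control KO library gave 3, 3 and 2 calls for replicates 1, 2 and 3. With TRA2B overexpressed, TRA2A KO changed 2 of 25 genes (8%, against 2.77% of all genes). LAMA5 fell to 108, 107 and 83.1 TPM from 165, 133 and 159 TPM (-0.56 ± 0.12, adjusted p = 0.0281), and ITGA5 rose to 28.5, 28.7 and 28.6 TPM from 23.6, 24.4 and 23.5 TPM (0.32 ± 0.06, adjusted p = 0.0201). Both had moved the same way, by -0.56 and 0.24, after TRA2A KO in Luc cells. The count was 0 without Control KO replicate 1 or 3 or TRA2A KO replicate 1 or 2, and 1 without TRA2A KO replicate 3. The change of the TRA2A KO effect by TRA2B-OE was called for 0 of 25 genes (0.0207% of all genes; 1 member at an unadjusted p under 0.05).

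**Figure D4:**
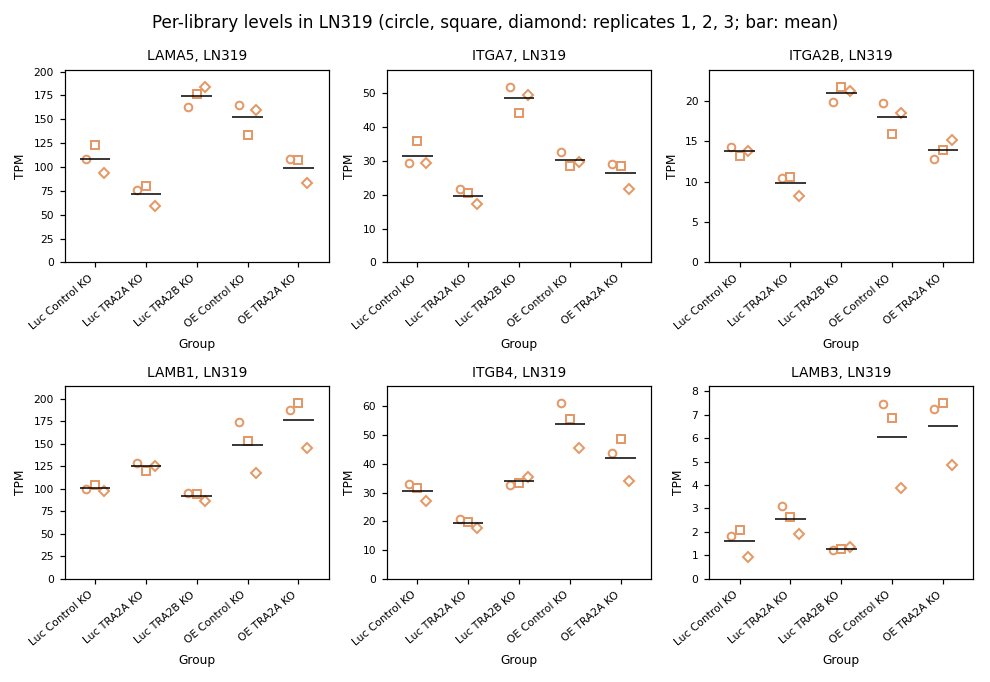
TPM of 6 genes in the 15 LN319 libraries by group, with circle, square and diamond for replicates 1, 2 and 3 and a bar at the mean. LAMA5, ITGA7 and ITGA2B are lowest in Luc TRA2A KO and highest in Luc TRA2B KO, and LAMB3 and ITGB4 are highest in the TRA2B-OE groups.

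**Figure D5:**
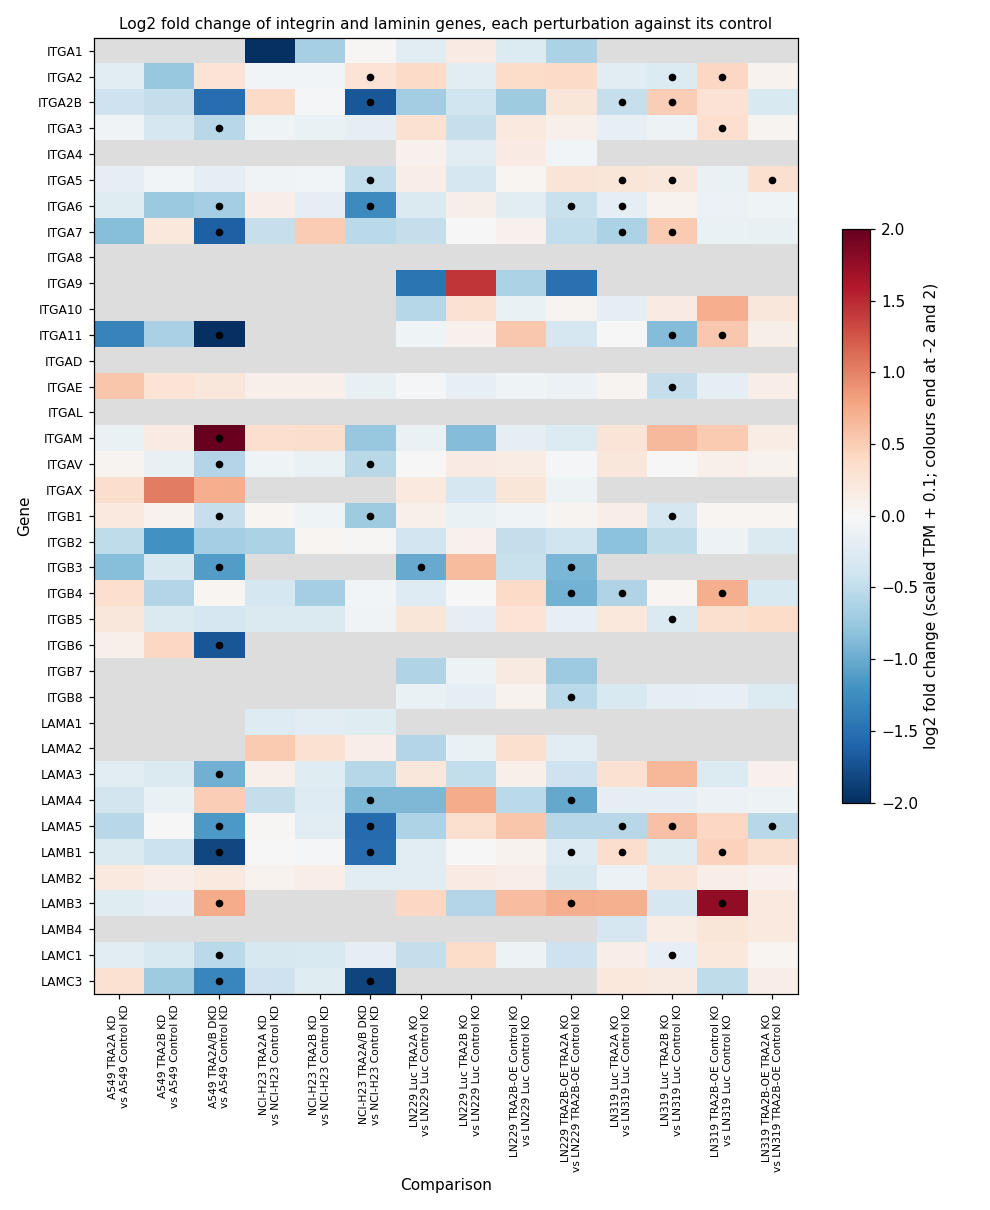
Log2 fold change of integrin and laminin genes (rows) in each comparison (columns), with a dot where the limma adjusted p was under 0.05 and grey where the gene missed the expression filter. The double-knockdown columns of A549 and NCI-H23 hold mostly lower calls, and the single-knockdown columns hold no call.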

How the data were processed

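The authors quantified the RNA-seq reads with kallisto (version 0.48.0 per the paper and the submitters' processing notes) on Gencode 34 transcripts of GRCh38, and deposited 1 table of TPM values per cell line, with no scaling between libraries. STAR 2.7.3 is also named in the processing notes. Read depth is unknown from TPM, so no counting interval is given and no count model was used. Each table was analysed alone in R 4.3.3. A gene had to reach 1 TPM in 4 or more libraries. Scaling between libraries used the trimmed mean of M values without weights (30% of log ratios and 5% of abundances trimmed), and log2(scaled TPM + 0.1) was fitted with limma 3.58.1 over all libraries of the line (empirical Bayes with a trend), with Benjamini-Hochberg adjustment over all genes kept. A fold change on this scale understates that of weakly expressed genes, and errors given with it are standard errors. Printed TPM levels are the deposited values. With 3 libraries against 3, an exact permutation test of a single gene cannot go below a two-sided p of 0.1, and none is given. The script was checked on simulated data.

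Integrins and laminins were found by gene name, and they and the partner lists (26 focal adhesion adaptors and kinases, 17 basement membrane and hemidesmosome partners, 21 other integrin ligands) were chosen with earlier results of these data known. Members are named with a level or range, except for 1 gene that, like 1 sequence, is not reported here. Values per library are given for the called members whose groups do not overlap, at most 8 per comparison by size of change, and for the 3 integrins and 3 laminins of highest control level in each line. From each partner list at most 3 called genes are named per comparison, by size of change. The 2 comparisons of the knockouts with each other, the values per library in them and members named beyond this rule were chosen after their values were seen. The marker genes were used to check each line. Coding sequences came from Gencode 44 and promoters from RefSeq. Alternatives were a pseudocount of 1, no expression filter, TPM as deposited, quantile normalization, a replicate block, only the compared groups in the fit, and each library left out.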

Additional observations from a re-analysis of the deposited data

Results flagged for a closer look

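Some genes had log2 fold changes of opposite sign in LN229 and LN319 under the same comparison. In deposited TPM every library of the first group lay on one side of the second in each line. The difference between the lines was not tested. In Luc TRA2B KO against Luc TRA2A KO, the log2 fold change of LAMB1 was 0.20 in LN229 and -0.59 in LN319. That of LAMC1 was 0.84 and -0.29, and both genes were called in each line. ITGA3 stood at -0.77 in LN229, where it was called, and at 0.0516 in LN319, where it was not. With TPM as deposited the median log2 fold change of all genes was 0.16 in this LN319 comparison. LAMA3 stood at -0.71 and 0.36 and was called in neither line. It ranged from 0.684 to 1.66 TPM in LN229 and from 1.13 to 3.28 TPM in LN319. In Luc TRA2A KO against Luc Control KO, LAMB1 stood at -0.21 in LN229, not called, and 0.35 in LN319, called but lost in 9 of 12 alternatives. In Luc TRA2B KO against Luc Control KO, ITGA5 stood at -0.34 in LN229, not called, and 0.22 in LN319, called. Groups of 3 libraries are too small for a test of single outlying libraries, and none was made.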

How the results depend on the processing

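Of 1308 alternative values of 104 single-gene results, 1052 kept direction and call, 255 kept direction and lost the call, and 1 reversed (LAMC1 in LN319 Luc TRA2B KO, 0.0454 under quantile normalization). For 56 of the 104 the call held under every alternative, among them LAMB1 and LAMA5 in both double knockdowns. Of 262 alternative counts of called genes, 218 were within 1.5 times the count reported. With TPM as deposited the median log2 fold change of all genes was 0.11 in A549 DKD, 0.26 in its departure from additivity, 0.17 in NCI-H23 DKD, 0.12 in LN319 Luc TRA2B KO and 0.16 in the direct comparison of the LN319 knockouts.

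The count of called genes was 3 for the departure from additivity in A549 under quantile normalization and 9 for A549 DKD with only the compared groups fitted. For LN229 Luc TRA2A KO it was 1 without the filter, 1 with TPM as deposited, 1 under quantile normalization and 0 with only the compared groups. For LN229 TRA2B-OE TRA2A KO these were 2 without the filter, 4 as deposited and 2 with only the compared groups. In LN319 the counts without the filter were 2 for TRA2B-OE and 1 for TRA2B-OE TRA2A KO, and with only the compared groups 0 and 0. The cause was not tested.

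Leaving out 1 library at a time gave ranges of 0 to 1 for A549 TRA2B KD, 10 to 17 for A549 DKD and 5 to 9 for its departure from additivity, 8 to 11 for NCI-H23 DKD and 5 to 8 for its departure. In LN229 they were 0 to 2 for Luc TRA2A KO, 0 to 9 for Luc TRA2B KO, 0 to 1 for TRA2B-OE, 2 to 8 for TRA2B-OE TRA2A KO and 12 to 16 for the direct comparison. In LN319 they were 4 to 7 for Luc TRA2A KO, 7 to 10 for Luc TRA2B KO, 2 to 10 for TRA2B-OE, 0 to 3 for TRA2B-OE TRA2A KO and 12 to 14 for the direct comparison. Libraries whose removal moved a count by more than 1.5 times are named in the report, except that LN229 TRA2B-OE had 1 call without its Control KO replicate 1, and A549 TRA2B KD had 1, ITGB5, without Control KD replicate 3.

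Same-numbered replicates were not treated as paired, because in no comparison were all 3 correlations of their deviations over 0.1. This rule does not exclude an effect shared by replicates of one number. Of the libraries, 7 of 12 in A549, 4 of 12 in NCI-H23, 8 of 15 in LN229 and 8 of 15 in LN319 correlated best with their own number. In LN229 replicate 1 had the most S100B in every group, such as 319 TPM against 139 and 116 TPM in Luc TRA2A KO. The cause was not tested. With a replicate block the count was 8 for LN229 Luc TRA2A KO, 5 for LN229 Luc TRA2B KO, 2 for LN229 TRA2B-OE and 10 for LN319 TRA2B-OE.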
